A study of Mus musculus with 29 samples.

Results

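Genotype was compared across diets in whole atria of male mice: 9 RNA-seq libraries of transgenic mice labelled NaV1.5 were set against 8 libraries of control (Ctrl) mice, 17 of the 29 libraries in the series. Membership follows the labels alone: every NaV1.5 or Ctrl library on regular diet (RD) or on a 4-week high-fat diet (HFD) was taken, and 1 genotype coefficient was fitted with diet as a term. The NaV1.5 mice gave 5 libraries on HFD and 4 on RD, and the Ctrl mice gave 4 on HFD and 4 on RD. Diets began at 5 weeks of age in all groups. The labels do not give the transgene's sequence, its promoter, the number of founder lines or the strain, so a difference between the genotypes cannot be told apart from a difference that this NaV1.5 line carries for other reasons. Whether the libraries of a group come from different mice is not stated, so the p-values speak only of variation among these libraries, which may be technical.

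NaV1.5 is the voltage-gated sodium channel that carries the fast inward current of the cardiac action potential. The atria conduct this current through working myocytes and hold the sinoatrial node, whose cells fire by themselves. Repolarization then depends on potassium channels, and conduction from cell to cell on connexins and the adhesion proteins of the intercalated disc. Altered sodium current, altered metabolism and fibrosis are each known in atrial fibrillation, the arrhythmia named in the study's title.

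The 17 libraries held 15318744 to 33061018 counted read pairs each, with 18.71 to 26.58% from mitochondrially encoded genes. The first principal component of log2 CPM (counts scaled to the size of the library) carried 17.6% of the variance. NaV1.5_RD replicate 4 lay apart from its group on it, at 34.7, while the other NaV1.5_RD libraries lay between -22.6 and -14.2. Ctrl_HFD replicate 4 is the only one of the 17 labelled batch 2, and all others are labelled batch 1. The annotation used for counting had an extra record named flag, to which no read pair was assigned (0 counts); that allows at most 0.091 to 0.196 CPM per library (3 counts of the total, counting error only). Atrial cardiomyocyte genes were expressed in both genotypes, with a summed level of 50600 to 67100 CPM in NaV1.5 libraries and 54200 to 63700 CPM in Ctrl libraries over 14 genes, of which 0 passed the test between genotypes.

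Of 16168 genes tested, 134 differed between the genotypes at an adjusted p below 0.05 with edgeR, or 0.829% of those tested. In NaV1.5 atria 74 were higher, 0.458% of tested genes, and 60 were lower, 0.371%. Before adjustment 1909 genes had p below 0.05, beside about 808 by chance. Of the same 16168 genes DESeq2 called 362 and limma-voom 423, and list counts given for these tools stand beside those totals. List counts of unadjusted p below 0.05 stand beside the 1909 of 16168. Most differences were small: the median absolute log2 difference of the 134 was 0.53, 75 of them differed by less than 1.5-fold, and 25 by more than 2-fold (18 higher, 7 lower). Predicted or clone names made up 17 of the 134. Counted as such were Gm with digits, names ending in Rik, and AC, AL, BC or CT with digits. That rule does not cover AI593442. Over all tested genes the median log2 difference was 0.00, and 50.8% lay above 0. With 1 library left out the count ran from 70 to 203. It was 70 without Ctrl_RD replicate 1, 85 without NaV1.5_RD replicate 1, Ctrl_HFD replicate 2 or Ctrl_HFD replicate 3, 86 without NaV1.5_HFD replicate 3 and 203 without NaV1.5_RD replicate 3. The 134 genes kept their sign wherever they were tested, in 17 fits that left out 1 library and in 13 other settings. A kept sign is favoured by the choice of these genes from the same libraries. Batch 1 alone, among the 13, is the same fit as leaving out Ctrl_HFD replicate 4. In all of these settings 30 of the 134 genes passed. With the stricter filter 132 of the 134 were tested, and with offsets for GC content and gene length 129.

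Groups that do not overlap are another description, which uses no model and takes no account of diet. It rests on the same values as the test and is no separate support. In 20 genes, 0.124% of those tested, the 9 NaV1.5 values lay all above or all below the 8 Ctrl values: 8 above and 12 below. Of these 20 genes, 17 were among the 134.

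The gene that differed most was Cdh6, a type II classical cadherin of cell-to-cell adhesion (chromosome 15, 13028701 to 13173675, minus strand). It stood at 8.15, 9.46 and 12.7 CPM (lowest, median, highest) in NaV1.5 libraries and at 0, 0.0986 and 0.303 CPM in Ctrl libraries. Every NaV1.5 library held at least 131 counts, and no Ctrl library more than 6. The log2 difference of Cdh6 was 6.41 (SE 0.26, adjusted p = 3.49e-13), with 6.20 to 6.67 when 1 library was left out. The size of this ratio is imprecise because it rests on few Ctrl counts.

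The genes next to Cdh6 were set beside it. Within 2 Mb, 12 other genes were tested, all towards lower coordinates, and 0 passed. Their lower coordinates, whatever the strand, lay 204 to 1964 kb from that of Cdh6. Their log2 differences ran from -0.12 (Gm2606) to 0.39 (Gm5144). The closest, Drosha, the nuclease of microRNA processing, was at -0.05 (SE 0.06, adjusted p = 0.789). Sub1 at 0.19 and Adamts12 at 0.37 had unadjusted p-values of 0.032 and 0.0396 and adjusted ones of 0.362 and 0.387. Cdh6 was the 1 gene of this stretch that passed.

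**Figure D1:**
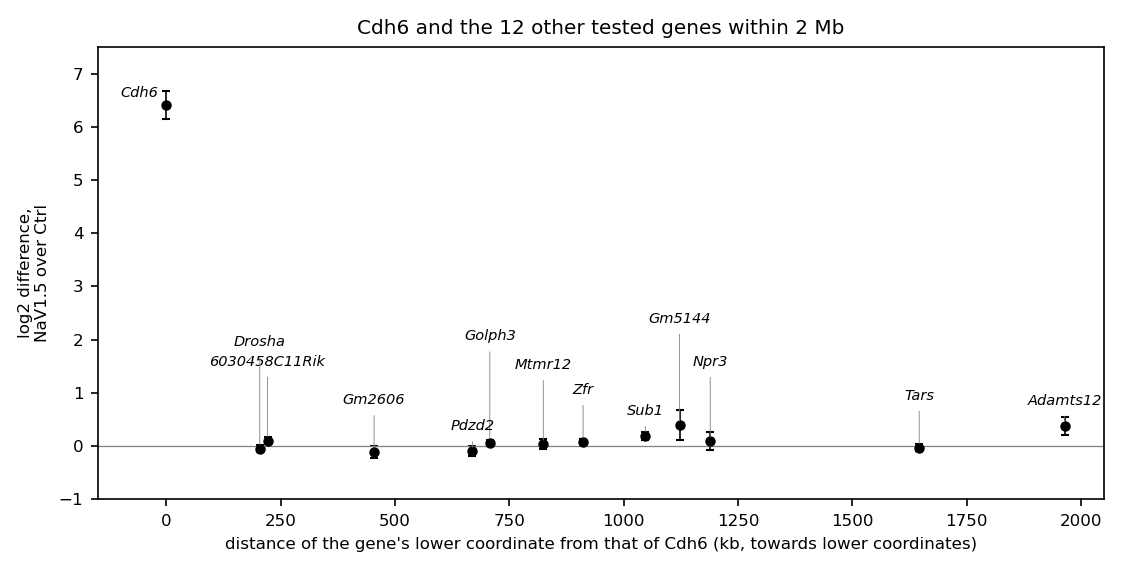
Log2 difference of NaV1.5 over Ctrl (vertical axis, with SE as bars) for Cdh6 and the 12 other tested genes within 2 Mb, against the distance of each gene's lower coordinate from that of Cdh6 in kb (horizontal axis). Cdh6 lies at 6.41 and the other genes between -0.12 and 0.39.

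Fam81a (chromosome 9, 70088511 to 70142560) came after Cdh6 by p among the genes that rose. It reached 1.85, 4.87 and 7.32 CPM in NaV1.5 libraries and 0.751, 1.14 and 1.72 CPM in Ctrl libraries, with no overlap. It rose by 1.96 (SE 0.23, adjusted p = 0.000189). Dok5, an adaptor of receptor tyrosine kinases (chromosome 2, 170731807 to 170879769), stood at 4.88, 6.07 and 7.62 CPM in NaV1.5 libraries and 2.65, 3.32 and 3.82 CPM in Ctrl libraries. Its groups did not overlap either, and it rose by 0.95 (SE 0.12, adjusted p = 0.000235). Rps6ka6, which encodes the ribosomal S6 kinase RSK4 (X chromosome, 111388192 to 111537959), stood at 2.47, 3.82 and 6.71 CPM in NaV1.5 libraries and 1.19, 1.78 and 3.09 CPM in Ctrl libraries. It rose by 1.17 (SE 0.15, adjusted p = 0.000235), and 8 of 9 NaV1.5 libraries lay above every Ctrl library.

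Esrrb, an orphan nuclear receptor of the oestrogen-related family, stood at 24.5, 33.9 and 41.6 CPM in NaV1.5 libraries and at 16.6, 20.2 and 27.3 CPM in Ctrl libraries. It rose by 0.67 (SE 0.10, adjusted p = 0.00094), and 7 of 9 NaV1.5 libraries lay above all Ctrl libraries. It was the 1 call among 20 genes of mitochondrial biogenesis and dynamics (median -0.000674, 9 above 0). Its relative Esrrg at -0.17 and Ppargc1a, a coactivator of this receptor family, at 0.15 did not pass (adjusted p = 0.419 and 0.434). Bdh1, the mitochondrial enzyme that interconverts ketone bodies, stood at 7.51, 10.1 and 16.4 CPM in NaV1.5 libraries and at 1.87, 4.8 and 8.01 CPM in Ctrl libraries. It rose by 1.15 (SE 0.17, adjusted p = 0.00143), with 7 of 9 libraries above Ctrl. Of its exonic bases 13.7% are shared with a gene on the opposite strand. Strand was ignored in counting, and pairs that fit both genes were discarded. Abhd18 rose by 0.55 (SE 0.07, adjusted p = 0.000277) and Neto2, an auxiliary subunit of kainate receptors, by 0.73 (SE 0.11, adjusted p = 0.00131).

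Tmem100, an endothelial membrane protein downstream of BMP signalling, stood at 54.5, 61 and 75.2 CPM in NaV1.5 libraries and at 30.3, 43.2 and 50.5 CPM in Ctrl libraries, with no overlap. It rose by 0.56 (SE 0.09, adjusted p = 0.0026). Aspn, which encodes the small leucine-rich proteoglycan asporin, stood at 14.2, 16.4 and 21.5 CPM in NaV1.5 libraries and at 6.94, 10 and 13.9 CPM in Ctrl libraries. These groups did not overlap, and Aspn rose by 0.70 (SE 0.11, adjusted p = 0.00277). The tetraspanin gene Tspan2 stood at 20.3, 21.9 and 26.3 CPM in NaV1.5 libraries and at 13.3, 16.5 and 19.3 CPM in Ctrl libraries, rising by 0.48 (SE 0.08, adjusted p = 0.00374). With all 29 libraries in the fit, Aspn and Tspan2 each had an adjusted p of 0.0544 and missed the threshold. The added libraries form diet levels without Ctrl libraries. They change the filter, scaling and spread of that fit but do not inform its genotype difference. Slc35f3 rose by 1.52 (SE 0.25, adjusted p = 0.003), AI593442 by 3.10 (SE 0.43, adjusted p = 0.00123) and Stmnd1 by 0.87 (SE 0.13, adjusted p = 0.00131). AI593442 stood at 1.37, 4.17 and 5.83 CPM in NaV1.5 libraries and at 0.118, 0.324 and 1.4 CPM in Ctrl libraries, with 8 of 9 NaV1.5 libraries above all of Ctrl.

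Marker lists of endothelium and fibroblasts were counted beside these genes. Of 15 endothelial markers 14 lay above 0 (median 0.16), and Tmem100 alone passed. Their summed level was 2470 to 3380 CPM in NaV1.5 libraries and 2280 to 3030 CPM in Ctrl libraries. Of 13 fibroblast markers 10 lay above 0 (median 0.16), and 1 passed, the microfibril gene Mfap5. Mfap5 stood at 82.2, 110 and 138 CPM in NaV1.5 libraries and at 66.1, 80.6 and 98.8 CPM in Ctrl libraries and rose by 0.45 (SE 0.10, adjusted p = 0.0266). That call was lost when any of 7 libraries was left out, at adjusted p-values from 0.0511 to 0.0736. The fibroblast markers summed to 5630 to 8530 CPM in NaV1.5 libraries and 6340 to 7920 CPM in Ctrl libraries. No marker of either list was at 0 in all libraries, and the part of cell makeup in these genes was not tested. In bulk atria, fewer cells of a type and less RNA per cell cannot be told apart.

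Among the lower genes Scn10a came first by p. It encodes NaV1.8, a sodium channel best known from sensory and cardiac neurons (chromosome 9, 119608456 to 119719322, minus strand). It stood at 4.72, 6.87 and 9.42 CPM in NaV1.5 libraries and at 12.7, 16 and 19.1 CPM in Ctrl libraries, with no overlap. On the log2 scale it fell by 1.23 (SE 0.12, adjusted p = 7e-06). Its log2 difference was -1.21 on HFD and -1.25 on RD. Gucy2e, a guanylate cyclase known from the retina, stood at 0, 0.251 and 0.402 CPM in NaV1.5 libraries and 0.751, 1.36 and 2.6 CPM in Ctrl libraries. It fell by 2.62 (SE 0.34, adjusted p = 0.000277), without overlap, though no NaV1.5 library held more than 9 counts.

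Lgals3, which encodes galectin-3, a carbohydrate-binding protein linked to macrophages and fibrosis, stood at 79.3, 98 and 134 CPM in NaV1.5 libraries and at 127, 176 and 220 CPM in Ctrl libraries. It fell by 0.72 (SE 0.10, adjusted p = 0.00094), with 7 of 9 NaV1.5 libraries below all Ctrl libraries. With all 29 libraries in the fit, where the added ones do not inform the genotype difference, the adjusted p of Lgals3 was 0.0765. Of 18 macrophage markers, by contrast, 16 lay above 0 (median 0.16), 0 passed with edgeR, and 5 had an unadjusted p below 0.05. DESeq2 called 0 of them and limma-voom 3, beside 362 and 423 of all 16168 tested genes. Over all of these, 1909 had an unadjusted p below 0.05 with edgeR. Lsp1, an actin-binding protein of leukocytes, fell by 0.39 (SE 0.06, adjusted p = 0.00163).

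Sbk3, a kinase gene expressed in heart muscle, stood at 561, 741 and 921 CPM in NaV1.5 libraries and at 900, 962 and 1290 CPM in Ctrl libraries, with 8 of 9 NaV1.5 libraries below all of Ctrl. It fell by 0.50 (SE 0.07, adjusted p = 0.000993). Its neighbour Sbk2, whose lower coordinate lies 25 kb from that of Sbk3, was named after its values were seen. Sbk2 fell by 0.42 (SE 0.09, adjusted p = 0.0211). Sbk2 missed the threshold without Ctrl_RD replicate 1, at 0.0531. Mrvi1, a substrate of cGMP kinase bound to the inositol trisphosphate receptor, stood at 23, 35 and 53.1 CPM in NaV1.5 libraries and at 51.4, 60.7 and 86.6 CPM in Ctrl libraries and fell by 0.86 (SE 0.14, adjusted p = 0.0053). Fras1, a basement membrane protein, stood at 8.74, 12.1 and 13 CPM in NaV1.5 libraries and at 13.5, 17.9 and 22.9 CPM in Ctrl libraries, with no overlap. Fras1 fell by 0.61 (SE 0.11, adjusted p = 0.00816), and Egflam, another matrix protein gene, by 0.37 (SE 0.07, adjusted p = 0.0084). Nav3, a neuron navigator gene that encodes no channel, stood at 1.17, 2.15 and 2.8 CPM in NaV1.5 libraries and at 3.25, 3.97 and 4.88 CPM in Ctrl libraries and fell by 0.98 (SE 0.14, adjusted p = 0.00076). Lrrc75b fell by 0.85 (SE 0.12), the aldehyde dehydrogenase gene Aldh3b2 by 1.21 (SE 0.18), the sodium-calcium-potassium exchanger gene Slc24a4 by 1.35 (SE 0.24) and Sh3tc2 by 0.43 (SE 0.07), with adjusted p-values of 0.00094, 0.00131, 0.00726 and 0.00517 in that order.

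**Figure D2:**
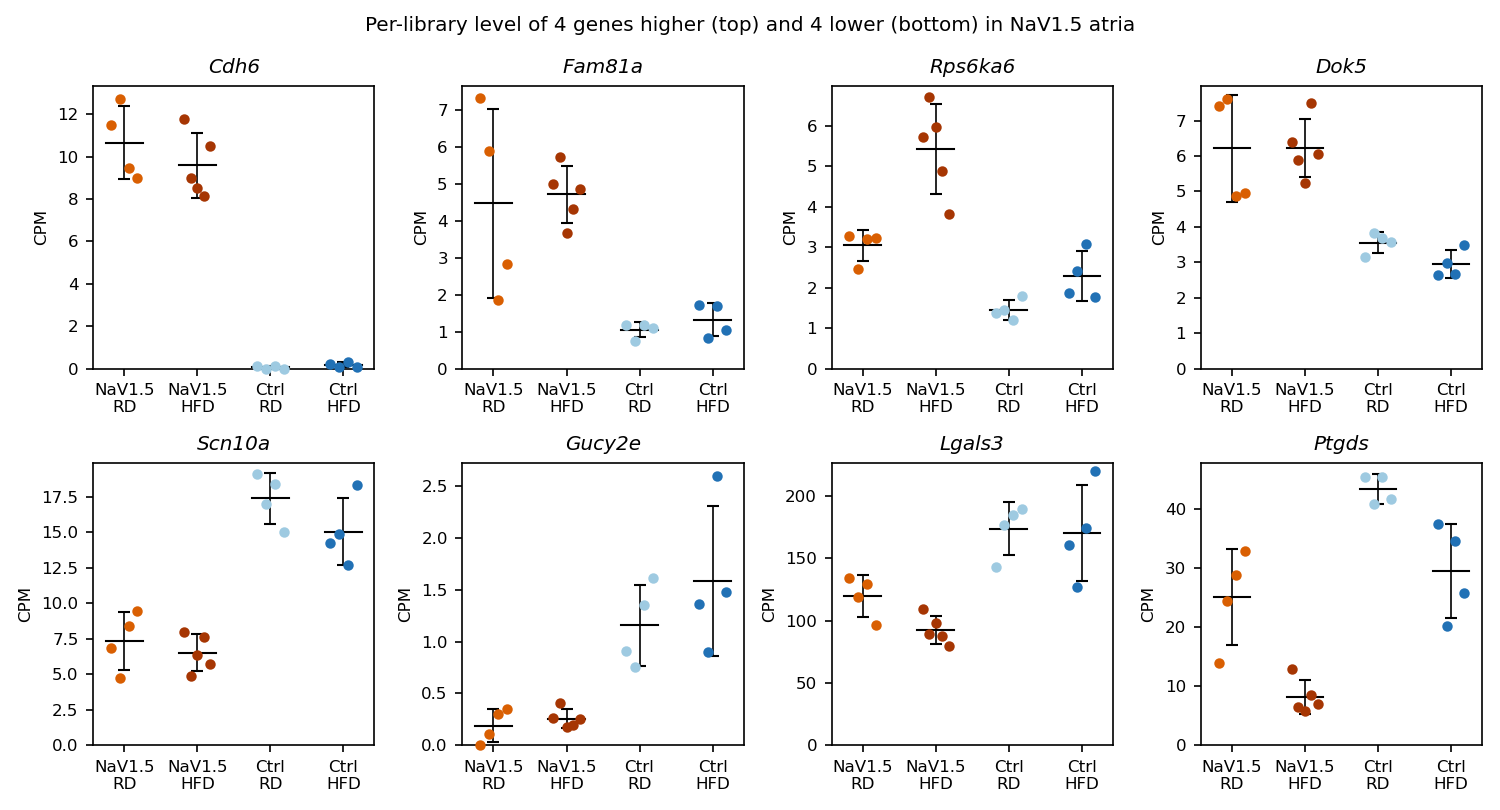
CPM in each of the 17 libraries (points) with the mean and SD (bars) of the 4 groups, NaV1.5 left of Ctrl, for 4 genes that rose (upper row) and 4 that fell (lower row). Cdh6, Fam81a, Dok5, Scn10a and Gucy2e show no overlap between genotypes, while Rps6ka6, Lgals3 and Ptgds overlap in 1 or more libraries.

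Sodium channel subunits were described as a list together with their partner proteins. Of 16 measured members 1 fell, Scn10a, and 0 rose. The median was -0.06, and 6 members lay above 0. Fgf13, an intracellular modulator of sodium channels, was at -0.39 (SE 0.09) with an adjusted p of 0.054. It passed without NaV1.5_RD replicate 3, NaV1.5_HFD replicate 1, NaV1.5_HFD replicate 4 or Ctrl_RD replicate 4, at 0.0158 to 0.043. Fgf12, of the same family, was at -0.23 (adjusted p = 0.082). DESeq2 and limma-voom each called 4 members of this list, beside 362 and 423 of all 16168 tested genes.

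Genes of the sinoatrial node were looked at singly. Ntm, which encodes a membrane-anchored adhesion protein, stood at 4.32, 6.82 and 9.74 CPM in NaV1.5 libraries and at 2.96, 4.36 and 5.29 CPM in Ctrl libraries. It rose by 0.73 (SE 0.14, adjusted p = 0.0117), with 8 of 9 NaV1.5 libraries above all Ctrl libraries. With all 29 libraries in the fit Ntm had an adjusted p of 0.0806 and missed the threshold. The channel gene Hcn2 was at -0.49 (SE 0.15, adjusted p = 0.127) and passed without NaV1.5_RD replicate 3, at 0.0353, and with DESeq2, at 0.0495. Vsnl1, a calcium sensor of the node, was at -1.18 (adjusted p = 0.109) with edgeR, and DESeq2 called it at 0.014.

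Potassium channels gave 1 rise and 0 falls among 22 measured members of the list (median -0.10, 5 above 0). Kcnj2, which encodes the inward rectifier Kir2.1 that sets the resting potential, stood at 42, 47.4 and 58.4 CPM in NaV1.5 libraries and at 31.4, 36.4 and 44.9 CPM in Ctrl libraries. It rose by 0.38 (SE 0.07, adjusted p = 0.0117), with 7 of 9 NaV1.5 libraries above all Ctrl libraries, and passed in every alternative run. The other leading members were lower and did not pass: Kcnj5, Kcnq1 and Kcnh2 were at -0.24, -0.29 and -0.24 (adjusted p = 0.127, 0.18 and 0.227). Outside the list, Kcnh7, a channel of the ERG family, stood at 3.34, 5.26 and 5.99 CPM in NaV1.5 libraries and at 6.17, 8 and 10.8 CPM in Ctrl libraries. Its groups did not overlap, and it fell by 0.72 (SE 0.12, adjusted p = 0.00364).

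Calcium handling genes gave 0 calls among 24 with edgeR (median -0.03, 9 at an unadjusted p below 0.05), 2 with DESeq2 and 4 with limma-voom. Connexins and intercalated disc genes gave 0 calls among 19 with edgeR, 4 with DESeq2 and 5 with limma-voom. Over all 16168 tested genes DESeq2 called 362 and limma-voom 423. All but 2 of the 19 connexin and disc genes lay below 0, the median was -0.12, and 7 had an unadjusted p below 0.05. Gja5, which encodes the atrial connexin 40, stood at 76.6, 112 and 139 CPM in NaV1.5 libraries and at 107, 144 and 192 CPM in Ctrl libraries. Its log2 difference was -0.47 (SE 0.12, adjusted p = 0.0614), and it passed without NaV1.5_HFD replicate 2 or Ctrl_HFD replicate 1, at 0.0369 and 0.026. Dsg2, a desmosomal cadherin gene, was at -0.19 (adjusted p = 0.0688) and Cdh2, the N-cadherin gene, at -0.31 (adjusted p = 0.0945).

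**Figure D3:**
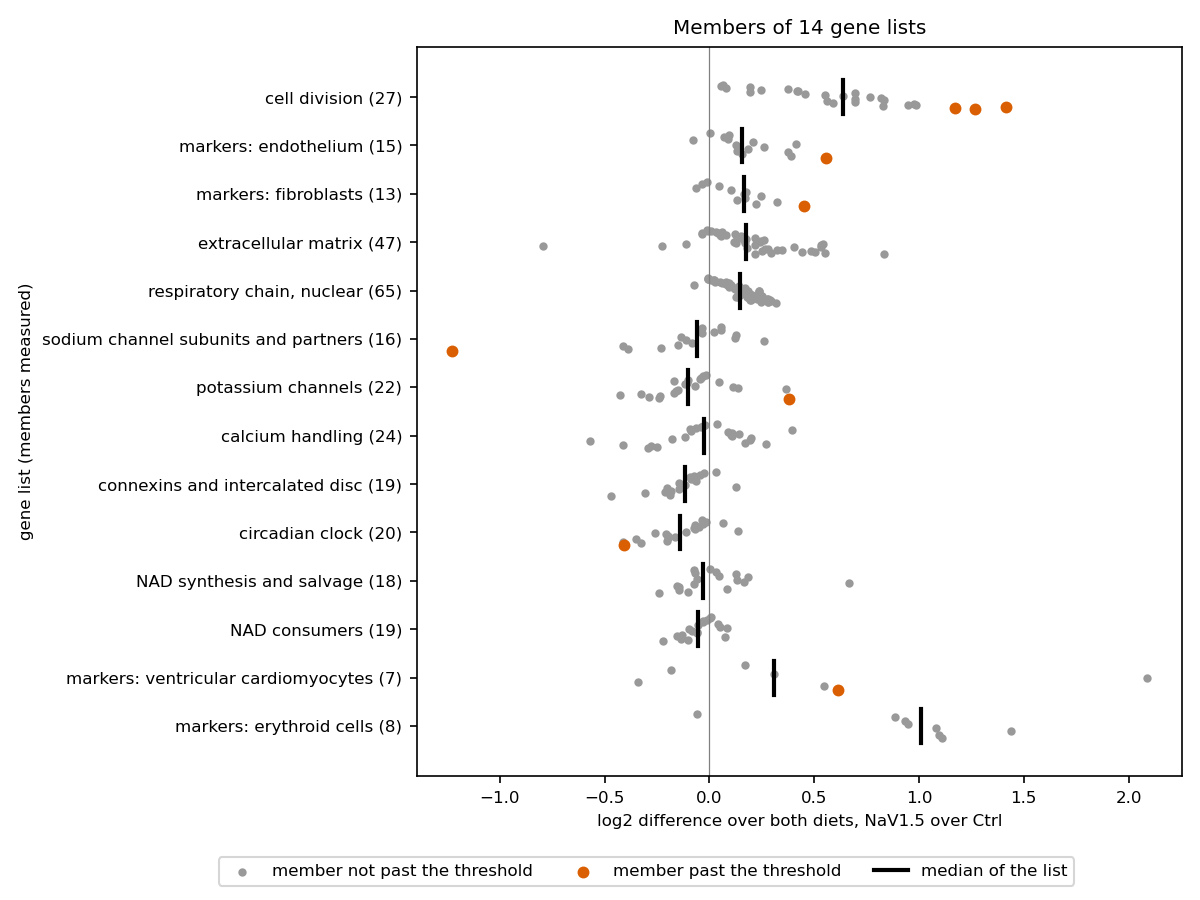
Log2 difference of NaV1.5 over Ctrl (horizontal axis) for the measured members of 14 gene lists (rows). Grey points are members, orange points members past the adjusted threshold, and black bars list medians; cell division lies to the right with all 27 members above 0, and connexins and clock genes lie slightly to the left.

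As a list, the genes of cell division lay higher in NaV1.5 atria. All 27 measured members lay above 0, and the median log2 difference was 0.64 beside 0.00 over all genes. Of the 27, 18 had an unadjusted p below 0.05, and 3 passed. Over all 16168 tested genes 1909 had an unadjusted p below 0.05, and 134 passed. Their summed level was 59, 81.5 and 111 CPM (lowest, median, highest) in NaV1.5 libraries and 46.2, 59.8 and 82.1 CPM in Ctrl libraries, so the groups overlapped. The median was 0.79 on HFD and 0.41 on RD, a difference that was not tested for the list.

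The 3 members that passed act in mitosis. Ccnb1 encodes cyclin B1, the activator of the mitotic kinase; it stood at 0.644, 0.988 and 1.75 CPM in NaV1.5 libraries and 0.188, 0.383 and 0.787 CPM in Ctrl libraries and rose by 1.27 (SE 0.25, adjusted p = 0.0155). Ube2c, the ubiquitin-conjugating enzyme of the anaphase-promoting complex, stood at 0.893, 2.64 and 3.51 CPM in NaV1.5 libraries and at 0.628, 0.998 and 2.12 CPM in Ctrl libraries and rose by 1.17 (SE 0.26, adjusted p = 0.0297). Hmmr, a hyaluronan receptor that also acts at the spindle, stood at 0.179, 0.988 and 2.11 CPM in NaV1.5 libraries and at 0.188, 0.374 and 0.787 CPM in Ctrl libraries and rose by 1.41 (SE 0.33, adjusted p = 0.0445). In each of the 3 genes the groups overlapped, with 6, 6 and 7 of 9 NaV1.5 libraries above all Ctrl libraries in that order. Levels were low: Ccnb1 had 10 to 37 counts per NaV1.5 library and 3 to 18 per Ctrl library. Of the exonic bases of Ube2c, 22.8% are shared with Tnnc2 on the opposite strand. Cdk1, the mitotic kinase gene, was at 0.83 (SE 0.20, adjusted p = 0.051).

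The number that passed depended on single libraries. It was 1, Ccnb1, without NaV1.5_RD replicate 1, without NaV1.5_HFD replicate 2, 3 or 4, without Ctrl_RD replicate 1 or 2, or without any one of Ctrl_HFD replicates 1 to 4. It was 5 without NaV1.5_RD replicate 3 or NaV1.5_HFD replicate 1, 6 without Ctrl_RD replicate 3 and 7 without NaV1.5_RD replicate 4. DESeq2 called 8 cell division genes and limma-voom 11, beside 362 and 423 of all 16168 tested genes. With all 29 libraries in the fit, which adds no Ctrl library, edgeR called 0 cell division genes. At least 26 of the 27 lay above 0 in each fit that left out 1 library. Outside the list, and named after their values were seen, the S-phase transcription factor gene E2f1 rose by 0.75 (SE 0.15, adjusted p = 0.0198), and the mitotic genes Ckap2 and Spc25 by 1.13 (SE 0.25, adjusted p = 0.0318) and 0.87 (SE 0.20, adjusted p = 0.0405). Ckap2 and Spc25 each missed the threshold in 12 of 17 fits that left out 1 library. With all 29 libraries in the fit E2f1, Ckap2 and Spc25 all missed it, at adjusted p-values of 0.191, 0.287 and 0.372.

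Promoters of the 3 called members are shown because mitotic genes are known to share CCAAT boxes, the core bound by nuclear factor Y, and some carry the cell cycle homology region. The 250 bases before each RefSeq gene start (build GRCm38.p6) are printed 5′ to 3′ on the gene's strand, with CCAAT or its reverse complement ATTGG, and TTTGAA or its reverse complement TTCAAA, in capitals.
Ccnb1, chr13:100786487-100786736, minus strand: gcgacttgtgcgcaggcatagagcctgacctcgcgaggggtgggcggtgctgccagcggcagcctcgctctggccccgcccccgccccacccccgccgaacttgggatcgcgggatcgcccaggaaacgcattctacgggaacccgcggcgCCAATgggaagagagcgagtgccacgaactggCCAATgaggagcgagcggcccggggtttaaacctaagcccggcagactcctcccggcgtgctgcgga
Ube2c, chr2:164769679-164769928, plus strand: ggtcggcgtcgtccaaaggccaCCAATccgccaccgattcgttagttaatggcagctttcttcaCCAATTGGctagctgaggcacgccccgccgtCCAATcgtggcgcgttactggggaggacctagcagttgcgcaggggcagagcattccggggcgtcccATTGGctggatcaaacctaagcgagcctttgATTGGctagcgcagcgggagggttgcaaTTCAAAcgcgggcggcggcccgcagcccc
Hmmr, chr11:40733438-40733687, minus strand: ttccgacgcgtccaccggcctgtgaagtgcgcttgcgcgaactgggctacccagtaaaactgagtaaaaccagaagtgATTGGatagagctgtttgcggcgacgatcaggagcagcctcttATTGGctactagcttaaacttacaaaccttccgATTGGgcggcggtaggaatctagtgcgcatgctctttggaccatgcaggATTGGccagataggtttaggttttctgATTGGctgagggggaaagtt
The CCAAT core was found 2 times before Ccnb1, 6 times before Ube2c, where a CCAAT and an ATTGG overlap, and 5 times before Hmmr. TTTGAA was found 1 time before Ube2c and 0 times before the other two. Of 27 measured cell division genes 23 matched a promoter in the RefSeq table. The CCAAT core was present in 20 of these 23 (87.0%), in 36.0% of 11608 promoters of tested genes and in 33.8% of all 32851. TTTGAA was present in 9 of 23 (39.1%), in 10.9% of promoters of tested genes and in 16% of all. These matches describe the letters in the windows and show neither binding nor a cause.

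Markers of other cell types were counted beside the cell division genes. Erythroid markers lay higher, with 7 of 8 above 0, a median of 1.01 and 0 calls with edgeR (7 at an unadjusted p below 0.05, 0 with DESeq2 and 0 with limma-voom). They summed to 421, 1380 and 2930 CPM in NaV1.5 libraries and 430, 784 and 1620 CPM in Ctrl libraries. This sum was highest in NaV1.5_HFD replicates 2 and 4 and NaV1.5_RD replicate 4. The median of the erythroid markers was 1.55 on HFD and 0.28 on RD, a difference that was not tested for the list. Markers of T and B lymphocytes had a median of 0.22 with 12 of 14 above 0 and 0 calls. No listed marker of these cell types was at 0 in all libraries. The part of these cell types in the cell division result was not tested.

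Ventricular cardiomyocyte markers, whose cells lie outside the atria, gave 1 rise among 7 (median 0.31, 5 above 0). Lbh, a transcriptional cofactor of heart and limb development, stood at 73.7, 104 and 142 CPM in NaV1.5 libraries and at 55.6, 67.6 and 98.6 CPM in Ctrl libraries and rose by 0.61 (SE 0.13, adjusted p = 0.0236). It missed the threshold on removal of NaV1.5_RD replicate 1 or 2, Ctrl_RD replicate 1 or Ctrl_HFD replicate 1, 2 or 3, at 0.0502 to 0.0586. Myl2, the defining ventricular myosin light chain, ranged from 5.15 to 193 CPM in NaV1.5 libraries and from 0.994 to 80.2 CPM in Ctrl libraries. The highest values belonged to NaV1.5_RD replicate 3, NaV1.5_HFD replicate 5 and Ctrl_RD replicate 1, and the log2 difference of 2.09 had an adjusted p of 0.426. The summed markers ran from 317 to 924 CPM in NaV1.5 libraries and from 393 to 712 CPM in Ctrl libraries, and their part in the other results was not tested.

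Extracellular matrix genes gave 0 calls among 47 with edgeR, 3 with DESeq2 and 8 with limma-voom. DESeq2 called 362 and limma-voom 423 of all 16168 tested genes. Of the 47 matrix genes 40 lay above 0, the median was 0.18, and 14 had an unadjusted p below 0.05. Thbs4, a thrombospondin gene, was at 0.83 (adjusted p = 0.057), and it passed without NaV1.5_HFD replicate 5 or Ctrl_RD replicate 3, at 0.0151 and 0.031. Serpinh1, the collagen chaperone gene, was at 0.22 (adjusted p = 0.127). The edgeR count of the list was 3 when NaV1.5_RD replicate 4 or Ctrl_RD replicate 3 was left out and 1 without NaV1.5_HFD replicate 5.

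The study's title concerns NAD, the redox cofactor of the respiratory chain and the substrate of sirtuins and PARP enzymes. Of 18 measured genes of NAD synthesis and salvage 0 passed with edgeR and 1 with each of DESeq2 and limma-voom, and 2 were below 0.05 before adjustment. Over all 16168 tested genes DESeq2 called 362 and limma-voom 423, and 1909 were below 0.05 with edgeR before adjustment. The median was -0.03, and 0.02 without Ctrl_RD replicate 2. Nmnat3, the mitochondrial nicotinamide mononucleotide adenylyltransferase gene, led with 12.8, 15.4 and 16.6 CPM in NaV1.5 libraries and 14.7, 18.6 and 19.4 CPM in Ctrl libraries. Its log2 difference was -0.24 (SE 0.07, adjusted p = 0.0956). Of 19 NAD consumers 0 passed with edgeR, DESeq2 or limma-voom, and 1 was below 0.05 before adjustment. Their median was -0.05, and Sirt1, a deacetylase, was at -0.22 (adjusted p = 0.315).

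Nuclear-encoded respiratory chain genes lay slightly higher, with 61 of 65 above 0 and a median of 0.15. With edgeR 0 passed, and 1 did with each of DESeq2 and limma-voom, which called 362 and 423 of all 16168 tested genes. Before adjustment 17 respiratory chain genes were below 0.05. Atp5l, an ATP synthase subunit gene, was at 0.32 (adjusted p = 0.0839), and it passed without NaV1.5_RD replicate 3, at 0.0462. Without NaV1.5_RD replicate 4 the median of the list was 0.08, with 1 surrogate variable it was 0.09, and with gene length offsets 0.12. The 11 measured mitochondrially encoded genes had a median of -0.02 with 0 calls in any tool and 0 at an unadjusted p below 0.05. Log2 differences over all tested genes tended to be lower in longer genes (Spearman rho -0.182 across genes, which are not independent replicates). The median gene length was 4020 bases for genes that rose and 5650 bases for genes that fell, beside 3990 bases over all. With GC content rho was -0.092 over 15895 genes. Median GC content was 46.6% for genes that rose and 52.1% for genes that fell, beside 50.2% over all.

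Genes of energy use outside the chain gave single calls. Pfkfb2, the enzyme that raises fructose 2,6-bisphosphate and so glycolysis in heart, stood at 18.6, 22.1 and 28 CPM in NaV1.5 libraries and at 22.9, 29.3 and 35 CPM in Ctrl libraries. It fell by 0.39 (SE 0.09, adjusted p = 0.0359), the only call among 22 genes of glucose use and insulin signalling. That call was lost in 9 of 17 fits that left out 1 library, at 0.0543 to 0.0907, and 19.5% of its exonic bases are shared with other genes. A pair of genes outside the lists was named after their values were seen and passed in every alternative run. Prkab2, a regulatory subunit of AMP-activated kinase, stood at 27.4, 33.2 and 39 CPM in NaV1.5 libraries and at 38, 42.2 and 47.2 CPM in Ctrl libraries and fell by 0.35 (SE 0.07, adjusted p = 0.0211). Slc25a13, the mitochondrial aspartate-glutamate carrier gene, stood at 34.5, 43.2 and 51.2 CPM in NaV1.5 libraries and at 46.6, 53.2 and 62.7 CPM in Ctrl libraries and fell by 0.37 (SE 0.08, adjusted p = 0.0206). Fatty acid uptake and oxidation gave 0 calls among 27 (median 0.00, 1 at an unadjusted p below 0.05).

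Circadian clock genes lay slightly lower: 2 of 20 were above 0, the median was -0.14, and 7 had an unadjusted p below 0.05. Hlf, a clock output transcription factor, was the 1 call. It stood at 36.3, 43.8 and 61.4 CPM in NaV1.5 libraries and at 51.1, 62.1 and 75.4 CPM in Ctrl libraries and fell by 0.41 (SE 0.09, adjusted p = 0.0326). Its relative Dbp was at -0.33 (adjusted p = 0.0807). Hlf missed the threshold in 10 of 17 fits that left out 1 library, at 0.0508 to 0.0735. The list held 0 to 3 calls in these fits, 3 with DESeq2 and 2 with limma-voom. The labels give no time of day for tissue collection.

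Ptgds was the only call among 21 prostaglandin and eicosanoid genes (median 0.04, 17 above 0). It encodes lipocalin-type prostaglandin D2 synthase (chromosome 2, 25466709 to 25470046) and stood at 5.7, 12.9 and 33 CPM in NaV1.5 libraries and at 20.2, 39.2 and 45.6 CPM in Ctrl libraries. It fell by 1.34 (SE 0.23, adjusted p = 0.00995), and 6 of 9 NaV1.5 libraries lay below all Ctrl libraries. It missed the threshold without the diet term, at an adjusted p of 0.16, and with all 29 libraries in the fit, at 0.0544.

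In other lists single members passed. Sh3tc2, a Schwann cell protein of endosomal recycling, was the 1 call among 14 Schwann cell markers (median -0.04, summed level 227 to 261 CPM in NaV1.5 libraries and 227 to 272 CPM in Ctrl libraries). Mlana, a melanosome protein gene, was the 1 call among 5 melanocyte markers (median -0.09, 2 above 0). It stood at 58.5, 85.9 and 111 CPM in NaV1.5 libraries and at 92.7, 109 and 158 CPM in Ctrl libraries and fell by 0.44 (SE 0.10, adjusted p = 0.0359). The listed markers Dct, Kit and Mitf reached at most 5.15, 5.8 and 37.9 CPM in any library. Whether Mlana reflects melanocytes here was not tested. Mlana missed the threshold in 10 of 17 fits that left out 1 library, at 0.0529 to 0.0743. Genes named after their values were seen, each called in every alternative run, were Ramp1, a co-receptor for the calcitonin gene-related peptide, which rose by 0.49 (SE 0.08, adjusted p = 0.00433), and Chd6, a chromatin remodeller gene, which rose by 0.47 (SE 0.09, adjusted p = 0.00995). Cbln1, a synaptic organiser gene, was called in all of them too and rose by 1.18 (SE 0.22, adjusted p = 0.0117).

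**Figure D4:**
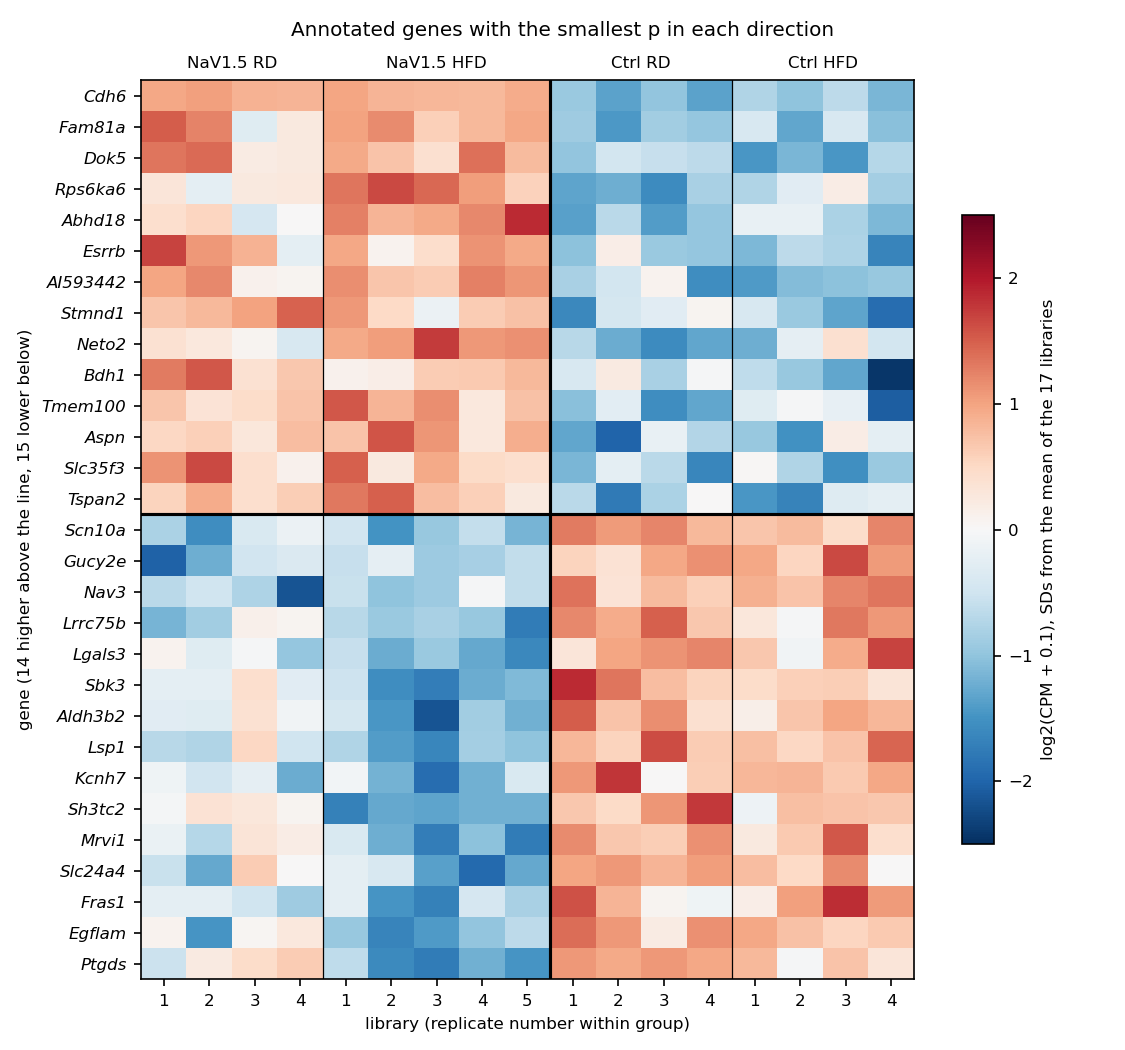
Level of 14 genes that rose and 15 that fell, from those with the smallest p (rows), in the 17 libraries (columns, NaV1.5 left of Ctrl), in SDs of log2(CPM + 0.1) from each gene's mean. The rows change colour between genotypes on both diets, with single libraries that depart, such as NaV1.5_RD replicate 3 for Fam81a.

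An additive model takes the genotype difference to be equal on the diets, and this was examined with an interaction term. With edgeR 0 genes passed, unadjusted p was below 0.05 in 468, fewer than the 808 that chance gives, and the smallest adjusted p was 0.9998. DESeq2 and limma-voom called 0 as well. A p that misses the threshold does not show that the difference was equal on both diets. The 5 genes with the smallest interaction p were 2310026L22Rik, Pkn3, Zpbp, Pdk4 and Fgfr3, and none passed. Of these Pdk4, the kinase that restrains pyruvate oxidation, was at 1.08 on HFD and -0.30 on RD, and the interaction log2 difference of 1.38 had an unadjusted p of 0.00166.

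On each diet by itself, with the spread shared over the 4 groups, 31 genes passed on HFD, 0.192% of those tested (17 higher, 14 lower), and 3 on RD, 0.0186% (2 higher, 1 lower). Of these, 30 of the 31 and 3 of the 3 were also among the 134. The remaining 104 of the 134 were called on neither diet alone, and all 134 had the same sign on both, which the choice of genes by an additive fit favours. Without 1 library the HFD count ran from 14 to 61. It was 14, 15 and 19 without Ctrl_HFD replicate 4, 3 and 2, 15 and 17 without NaV1.5_HFD replicate 3 and 2, and 61 without NaV1.5_RD replicate 4. The RD count was 1 without NaV1.5_RD replicate 1, 5 without NaV1.5_RD replicate 3 and 6 without NaV1.5_RD replicate 4. DESeq2 called 142 genes on HFD and 23 on RD.

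Of the 134 genes, 6 had an unadjusted interaction p below 0.05. The smallest of these p-values was that of Ptgds, at -1.86 on HFD and -0.80 on RD, with an interaction of -1.06 on the log2 scale (unadjusted p = 0.00963). Mrvi1 was at -1.12 on HFD and -0.57 on RD (unadjusted p = 0.0393). The other genes were Sh3tc2, Gm49891, Clec4d and Hectd2os, with unadjusted interaction p-values of 0.041, 0.0174, 0.0385 and 0.0484. None passed after adjustment over all genes.

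**Figure D5:**
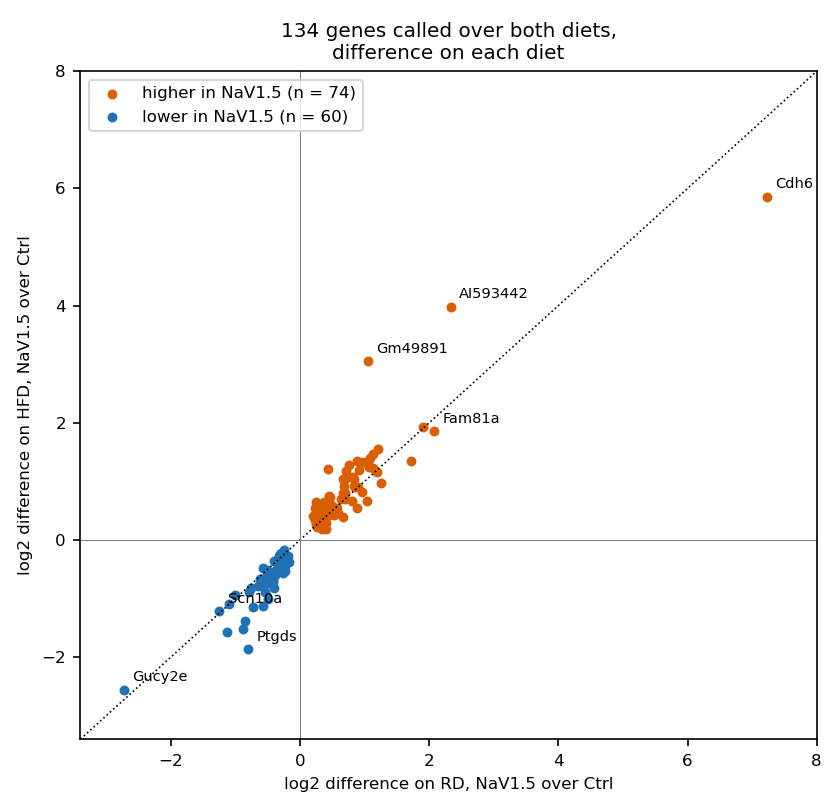
Log2 difference of NaV1.5 over Ctrl on HFD against that on RD for the 134 called genes (points), with a dotted line of equal difference. All points lie in the quadrants of equal sign; Ptgds lies at -1.86 on HFD and -0.80 on RD, and Gm49891 at 3.05 and 1.06.

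Positions of the called genes were listed. They lay on 20 chromosomes, with 0 called on the Y chromosome and the mitochondrial genome. The share called per autosome ran from 0.409% of 978 tested genes on chromosome 1 to 1.40% of 857 on chromosome 8. Pairs of called genes with lower coordinates within 1 Mb and the same direction included Sbk2 and Sbk3 (25 kb apart), Lsp1 and Prr33 (30 kb), Cbln1 and Gm2694 (8 kb), Neto2 and Gm39214 (94 kb), and 2310039L15Rik and Socs2 (49 kb). These distances are between lower coordinates, whatever the strand. The spans of Lsp1 and Prr33 overlap, and Cbln1 lies within the span of Gm2694. The starts of Abhd18 and Gm2011 lay within 1 kb, and their exons overlap on the same strand.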

How the data were processed

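Whole atria were profiled in 29 libraries, and 17 of them enter the comparison. The labels' protocols name a miRNeasy micro kit for extraction, an input of 500 ng of RNA or more, and a stranded TruSeq preparation with poly-A selection. Tools named in the submitters' processing notes are FastQC 0.11.7, STAR 2.7.6a and featureCounts 2.0.1, and the builds named there are GRCm38 and mm10. What the authors deposited are raw counts, whole numbers of read pairs for each gene name, from featureCounts 2.0.1 per the file headers. Strand was ignored there, and pairs that fit more than 1 gene or place were discarded, so overlapping genes and near-identical copies are uncertain. No source used here describes trimming. Libraries of the comparison held 15318744 to 33061018 counts.

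Group, replicate and batch were read from the labels. The titles of Ctrl_RD replicate 1 and NaV1.5_RD replicate 4 hold no number, and theirs serve only as names. Count profiles of replicates were compared by chi-square, which gave at least 6.9 per gene for any 2 libraries of a group, and none was treated as a duplicate.

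The gene test was edgeR's quasi-likelihood F-test (edgeR 4.0.16, R 4.3.3) with filterByExpr on the 4 groups, TMM scaling and robust dispersion; it was 2-sided, with Benjamini-Hochberg adjustment over the 16168 genes kept and a threshold of 0.05. Diet and genotype were the terms. Batch was not, since a batch term takes all weight from Ctrl_HFD replicate 4. The interaction and the differences on each diet came from fits over the same 17 libraries. CPM use the library total with TMM scaling. The SE printed is the size of the log2 difference over the square root of F, which only approximates a coefficient's error. The scripts were tested on simulated counts.

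The genes compared and the 44 gene lists were chosen with earlier results of these data known, so no list is independent evidence, and lists are described by counts and medians without a test. Named in the text are, of called genes without predicted or clone names, the 15 of smallest p on either side, up to 4 members with the smallest p of a described list, and the 5 smallest interaction p-values. Genes said to be named after their values were seen, and Drosha, Sub1, Adamts12, Gm2606, Gm5144, the further interaction genes, and the neighbour pairs, fall outside that rule. A few genes covered by this rule are left out of the text. Of lists not described in the text, that of cadherins has 1 call, Cdh6, and that of pacemaker genes is left out; the others had 0 with edgeR.

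Alternatives were no low-count filter, a stricter one (1 CPM in 4 libraries), DESeq2 size factors, DESeq2 1.42.0, limma-voom 3.58.1 with quality weights, batch as a term, batch 1 alone, the replicate number as a block, gene length offsets, 1 surrogate variable (sva 3.50.0), no diet term, all 29 libraries, and each library left out. In the fit of all 29 libraries the vehicle and nicotinamide riboside libraries had their own diet levels. They bear there on the filter, scaling and spread only. Batch 1 alone is the same fit as leaving out Ctrl_HFD replicate 4. The block fit used only libraries with a number in the title, so Ctrl_RD replicate 1 and NaV1.5_RD replicate 4 were not in it. Offsets for GC content and length were added after the data were seen. Exon overlaps come from the count files, and promoters from RefSeq tables (GRCm38.p6). Python 3.11.15, pandas 2.3.3 and matplotlib 3.10.9 were used for files and figures.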

Additional observations from a re-analysis of the deposited data

Results flagged for a closer look

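The highest or lowest value of 68 genes and of 6 list sums was examined within the groups of 4 or 5 libraries. It was compared with the rest of its group by Dixon's 95% criterion. Other genes named in the text, such as Kcnj5 and Sirt1, were not examined in this way. Of 296 groups examined, 20 held a value set apart, where chance gives about 14.8 (1 in 20).

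Values lay below the rest of their group in these cases. Rps6ka6 was at 2.47 CPM in NaV1.5_RD replicate 2, with the others at 3.21 to 3.28. Tmem100 was at 30.3 CPM in Ctrl_HFD replicate 4, the library of batch 2, with the others at 47.3 to 50.5. Lrrc75b was at 3.87 CPM in NaV1.5_HFD replicate 5, with the others at 5.21 to 5.73. Sh3tc2 was at 8.25 CPM in NaV1.5_HFD replicate 1 and 11.5 CPM in Ctrl_HFD replicate 1, beside 8.92 to 9.15 and 13.7 to 13.9 in the rest of each group. Egflam was at 10.8 CPM in NaV1.5_RD replicate 2 (others 13.9 to 14.4), Prkab2 at 29.7 CPM in NaV1.5_RD replicate 4 (others 37.6 to 39.0) and Nmnat3 at 14.3 CPM in NaV1.5_RD replicate 2 (others 16.3 to 16.6).

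Values lay above the rest of their group in others. Sbk3 was at 921 CPM in NaV1.5_RD replicate 3, with the others at 784 to 791. Neto2 was at 10.4 CPM in NaV1.5_HFD replicate 3 (others 7.83 to 8.38), Cbln1 at 3.65 CPM in NaV1.5_HFD replicate 4 (others 1.37 to 1.92), and Esrrb at 27.3 CPM in Ctrl_RD replicate 2 (others 19.7 to 20.3). Ramp1 was at 67.4 CPM in NaV1.5_RD replicate 4 (others 45.2 to 48.5) and, on the low side, at 35 CPM in NaV1.5_HFD replicate 2 (others 42.2 to 44.9). Cell division genes appeared 3 times: E2f1 at 5.62 CPM and Ckap2 at 2.61 CPM in NaV1.5_HFD replicate 5 (others 3.42 to 4.03 and 1.42 to 1.74), and Ube2c at 2.12 CPM in Ctrl_RD replicate 3 (others 0.628 to 0.688). Myl2, the ventricular marker, was set apart in 3 groups, at 193 CPM in NaV1.5_RD replicate 3 (others 8.98 to 34.2), 102 CPM in NaV1.5_HFD replicate 5 (others 5.15 to 8.86) and 80.2 CPM in Ctrl_RD replicate 1 (others 3.13 to 6.06).

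The comparison does not use the 12 other NaV1.5 libraries, which are on HFD with vehicle or nicotinamide riboside. In them Cdh6 was present in every library, at 5.55 CPM in the lowest, above the 8 Ctrl libraries at 0 to 0.324 CPM when all 29 were scaled together. Of these 12, 5 share batch 2 with 1 Ctrl library, and 7 lie in batch 3, where no Ctrl library lies and genotype and batch cannot be told apart.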

How the results depend on the processing

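No called gene changed sign under an alternative in which it was tested, which the choice of these genes from the same libraries favours. The pooled count of 134 was 362 with DESeq2, 423 with limma-voom, 338 with 1 surrogate variable, 86 without the diet term and 74 with the replicate number as a block, and 70 to 203 with 1 library left out. The block fit also lacked Ctrl_RD replicate 1 and NaV1.5_RD replicate 4, whose titles hold no number, and tested 16367 genes. Without Ctrl_RD replicate 1 alone the count was 70, and without NaV1.5_RD replicate 4 alone it was 194. Changes given for the block cannot be told apart from the loss of these libraries. It was 195 with offsets for GC content and gene length, a choice made after the data were seen. The HFD count of 31 was 142 with DESeq2, 14 with batch 1 alone and 14 to 61 with 1 library left out. Batch 1 alone repeats the fit without Ctrl_HFD replicate 4 and is no separate check. The RD count of 3 was 23 with DESeq2, 1 with the replicate block and 1 to 6 with 1 library left out. The interaction count was 0 in every setting run. Of the pooled calls, 64 also passed with the block. Same-numbered libraries of different groups did not deviate together (18 pairs, r -0.166 to 0.17, median 0.011, 4 over 0.1), so the numbers are not taken to pair the samples. Calls of the leading genes lost outside the left-out fits were those of Mrvi1, Fras1 and Ptgds with the block (adjusted p = 0.0628, 0.134 and 0.0612), Sh3tc2 and Ptgds without the diet term (0.0501 and 0.16), and Aspn, Tspan2, Lgals3 and Ptgds with all 29 libraries (0.0544, 0.0544, 0.0765 and 0.0544). Of the other calls named, Mfap5, Pfkfb2, Spc25, Hmmr, Ube2c and Mlana were lost with batch as a term (0.0593, 0.0827, 0.0623, 0.091, 0.0515 and 0.0827), Lbh and Mlana without the low-count filter (0.0767 and 0.0602), and Pfkfb2 with GC and gene length offsets (0.0502). Hmmr, Spc25, Mfap5, Pfkfb2, Sbk2 and Socs2 were lost with the block (0.174, 0.164, 0.139, 0.144, 0.055 and 0.115), and Hmmr, Hlf, Pfkfb2, Mlana and Sbk2 without the diet term (0.0653, 0.0773, 0.0575, 0.125 and 0.0852). With all 29 libraries Ccnb1, Ube2c and Hmmr were lost (0.259, 0.258 and 0.341), as were Mfap5, Hlf and Sbk2 (0.0601, 0.0523 and 0.0561). The added libraries do not inform the genotype difference of that fit. With the block the median of nuclear-encoded respiratory chain genes was 0.049, that of potassium channels -0.049 and that of extracellular matrix genes 0.27; with 1 surrogate variable potassium channels were at -0.036. The cause was not tested. Depth limits genes such as Cdh6 and Gucy2e, where 1 genotype holds at most 9 counts per library, and Ccnb1 and Hmmr, with 3 to 42.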

Other observations

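The 12 NaV1.5 libraries on HFD with vehicle or nicotinamide riboside were set beside the 8 Ctrl libraries for 29 leading genes, as values with no test, since all but 1 of the Ctrl libraries lie in another batch. All 12 lay above every Ctrl library for Cdh6, Fam81a, Rps6ka6, Neto2, Aspn and Tspan2, the direction of the pooled difference. All 12 lay below every Ctrl library for Scn10a, Gucy2e, Lgals3, Sbk3, Aldh3b2, Lsp1, Egflam and Ptgds, again that direction. Rps6ka6 ran from 5.13 to 19.8 CPM in these NaV1.5 libraries and from 1.28 to 3.31 CPM in Ctrl libraries, and Scn10a from 4.84 to 12.2 CPM against 13.6 to 20.5 CPM in Ctrl libraries. Fras1 lay the other way from its pooled fall: all 12 were above Ctrl, at 25.9 to 40.1 CPM against 14.6 to 24.6 CPM in Ctrl libraries. For the remaining genes the ranges overlapped.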
